A study of Mus musculus with 4 samples.

Results

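The enzymes that remove superoxide and peroxides were compared between mice with sepsis that did and did not receive melatonin. The set held 10 genes, which were Sod1, Sod2, Sod3, Cat, Gpx1, Gpx3, Gpx4, Prdx3, Prdx5 and Txn2. They were picked by name, and each was found once among the 55401 gene identifiers of the count files. Sepsis was induced in C57BL/6 mice by cecal ligation and puncture (CLP), an operation that lets gut bacteria leak into the abdomen. The CLP + MLT group received melatonin (MLT) as well as CLP. Kidneys came from male mice aged 8 weeks and were collected 24 h after CLP. Melatonin was dissolved in ethanol and given at 25 μg/ml in the drinking water for the 14 days before CLP. The paper names ethanol water for the sham mice and does not say what the CLP mice without melatonin drank. For the hearts no dose, age or time was given. The melatonin libraries of both tissues are labelled MLT4, and that number was not explained. There was 1 library in each of the 4 groups (CLP kidney, CLP + MLT kidney, CLP heart and CLP + MLT heart), and whether it held 1 mouse or several was not stated. No difference could therefore be set against the spread between mice, no p-value is given, and every interval covers counting error only. All mice had CLP, and sham mice were not analysed here.

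Superoxide is made when oxygen takes up a single electron, for example by leakage from the respiratory chain or by NADPH oxidases. Superoxide dismutases turn it into hydrogen peroxide. Catalase, glutathione peroxidases and peroxiredoxins then turn hydrogen peroxide into water. Glutathione peroxidases are restored by glutathione and peroxiredoxins by thioredoxin, and both chains draw on NADPH. The kidney tubule and the heart muscle cell are rich in mitochondria and so depend on these enzymes. The question was whether RNA of this enzyme set differed between the CLP + MLT and the CLP library of a tissue, and whether it did so alike in kidney and heart.

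The libraries held 15883057 to 22927905 reads on genes. Of the reads placed on a gene or on none, 52.1% to 52.6% fell on none. Reads that fitted several places in the genome went uncounted, and they took 23.6% of the CLP and 32.6% of the CLP + MLT kidney library, and 38.6% and 37.0% of the heart libraries. Mitochondrially encoded genes held 14.8% of the CLP kidney counts, 24.2% of the CLP + MLT kidney counts, 31.6% of the CLP heart counts and 36.0% of the CLP + MLT heart counts. The kidney marker Kap, an androgen-regulated gene of the proximal tubule, stood at 19569 and 26683 CPM (counts scaled to the total of a library) in the kidney libraries and at 262 and 605 CPM in the heart libraries. The heart marker Myh6, the alpha myosin heavy chain, stood at 12571 and 9959 CPM in the heart libraries and at 3.01 and 3.70 CPM in the kidney libraries, so each library carried defining RNA of its labelled tissue.

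Of the 10 enzymes, 3 are selenoproteins, in which a TGA codon that elsewhere ends translation is read as selenocysteine, the residue that reacts with the peroxide. Their codons are shown because Gpx1, Gpx3 and Gpx4 share them while their ratios differ in sign or size. The lines give 30 bases on each side of the codon from the GENCODE M21 principal transcript, 5′ to 3′, with the codon in capitals. In Gpx1 it lies in exon 1 of 2 at chr9:108339451-108339453, in Gpx3 in exon 2 of 5 at chr11:54907256-54907258, and in Gpx4 in exon 3 of 7 at chr10:80054737-80054739 (GRCm38, plus strand).
Gpx1: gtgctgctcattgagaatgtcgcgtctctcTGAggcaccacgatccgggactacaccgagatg
Gpx3: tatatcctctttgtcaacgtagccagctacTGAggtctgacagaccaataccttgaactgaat
Gpx4: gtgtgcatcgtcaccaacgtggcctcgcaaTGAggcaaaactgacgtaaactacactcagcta

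Sod1, Gpx4 and Prdx5 had the largest differences in heart and ratios of the opposite sign in kidney, so their promoters are printed. RefSeq promoter windows of GRCm38.p6 run from 250 bases before to 50 bases after a gene's start and were found for 9 of the 10 genes. Capitals mark the GC box (GGGCGG) and the CCAAT box (CCAAT), each searched on both strands with overlapping matches counted. The windows are chr16:90220512-90220811 on the plus strand for Sod1, chr10:80053315-80053614 on the plus strand for Gpx4 and chr19:6910057-6910356 on the minus strand for Prdx5. The Gpx4 window is the closest of 4 for that gene, and its start lies 77 bases from that of the principal transcript.
Sod1: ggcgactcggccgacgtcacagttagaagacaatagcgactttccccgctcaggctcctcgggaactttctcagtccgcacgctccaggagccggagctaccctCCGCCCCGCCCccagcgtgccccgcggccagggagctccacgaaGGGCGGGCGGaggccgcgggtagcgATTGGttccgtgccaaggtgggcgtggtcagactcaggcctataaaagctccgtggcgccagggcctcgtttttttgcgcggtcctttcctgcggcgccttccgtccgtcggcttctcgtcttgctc
Gpx4: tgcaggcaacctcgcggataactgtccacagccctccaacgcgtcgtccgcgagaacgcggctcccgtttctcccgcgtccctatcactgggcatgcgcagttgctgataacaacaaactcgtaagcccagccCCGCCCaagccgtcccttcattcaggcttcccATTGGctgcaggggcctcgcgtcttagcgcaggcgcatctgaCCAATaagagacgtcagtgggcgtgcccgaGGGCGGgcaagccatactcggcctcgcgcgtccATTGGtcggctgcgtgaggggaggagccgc
Prdx5: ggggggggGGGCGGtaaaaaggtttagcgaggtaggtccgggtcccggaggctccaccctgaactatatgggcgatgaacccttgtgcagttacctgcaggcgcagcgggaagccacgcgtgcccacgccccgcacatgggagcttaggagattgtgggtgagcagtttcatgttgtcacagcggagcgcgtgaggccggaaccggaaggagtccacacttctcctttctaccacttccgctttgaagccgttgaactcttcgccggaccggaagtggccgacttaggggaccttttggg

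The GC box, which Sp1 can bind, was in all 9 windows and in 35.7% of the 32851 windows of the table. Sod1 and Sod2 each held 4, Gpx4 and Txn2 each held 2, and the other 5 held 1 each. The CCAAT box, which NF-Y can bind, was in 6 of the 9 windows, among them Gpx4 with 3 and Cat with 4, and in 37.4% of all windows. The antioxidant response element TGACNNNGC, which Nrf2 can bind, was found in Sod1 alone, 1 time, against 12.4% of all windows. Sod1, Gpx4 and Prdx5 thus shared the GC box, while Prdx5 had no CCAAT box in its window. A match of letters was not taken as a bound site.

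Per length, Gpx3, the glutathione peroxidase that the proximal tubule secretes into plasma, had the highest level of the 10 in every library. Levels were computed as TPM, counts per base scaled to the total of a library, from the merged exon length of each gene. TPM served to rank genes within a library, and CLP and CLP + MLT are compared below on TMM-scaled counts. The 2 scales can differ in direction, as for kidney Sod2, which was 1.19-fold higher with melatonin by TMM and lower by TPM. Gpx3 stood at 26892 TPM in CLP kidney and 17884 TPM in CLP + MLT kidney, ranking 7 and 10 among all genes, and at 1029 and 1087 TPM in the heart libraries. Next in CLP kidney came Gpx1 at 1608 TPM, Prdx5 at 1403 TPM, Cat at 808 TPM and Gpx4 at 721 TPM. Sod2 was the lowest in both kidney libraries at 58.6 and 52.3 TPM, and Sod3 was the lowest in both heart libraries at 8.23 and 8.92 TPM. The place of Sod1 depended on the length used, since its merged exons (3970 bases) hold a retained intron that its principal transcript (641 bases) lacks. By merged exons Sod1 stood at 401 TPM in CLP kidney, the sixth of the 10, and by principal transcript at 1959 TPM, second after Gpx3 at 24145 TPM. Both lengths put Gpx3 first in all 4 libraries.

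**Figure D1:**
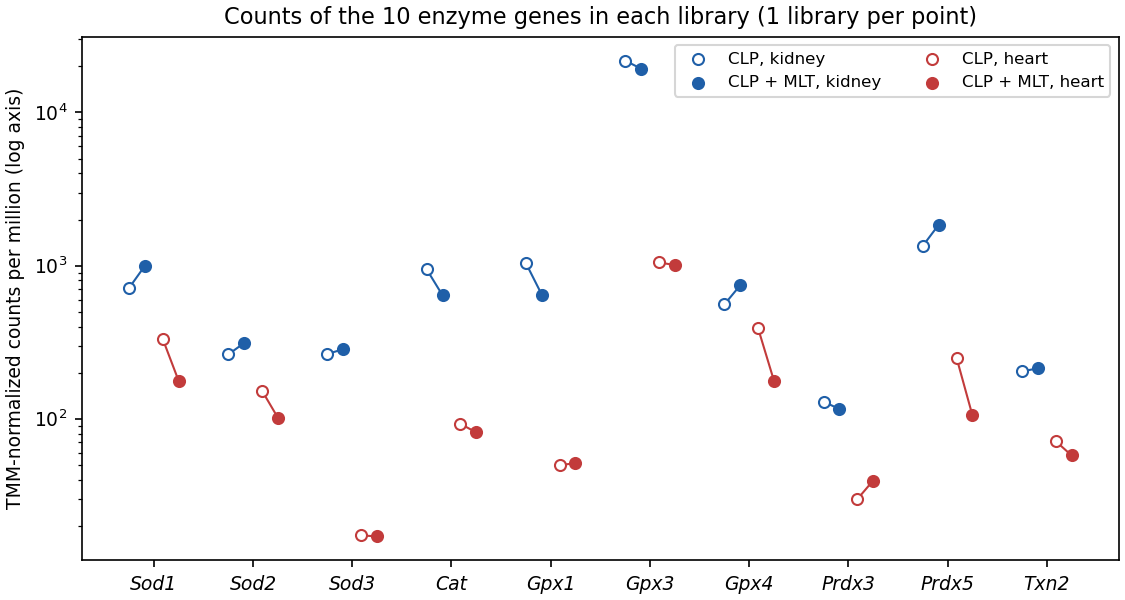
TMM-normalized CPM (vertical, log axis) of each of the 10 enzyme genes (horizontal) in the 4 libraries. Open points are CLP and filled points CLP + MLT, blue for kidney and red for heart, and each point is 1 library with no error bar. Gpx3 lies above all other genes in both tissues, and in heart the lines of Sod1, Gpx4 and Prdx5 drop most.

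With melatonin, 1 of the 10 enzymes was lower in kidney and 4 were lower in heart. A difference was called at 1.5-fold, the fold that the study's methods give, on counts scaled by TMM within the tissue. In kidney none of the 10 was called higher and 1, Gpx1, was called lower. Over the 16932 kidney genes with a mean count of 10 or more, 11% were called higher and 11.6% lower. Each of the 10 was abundant (a mean count of 250 or more) in both tissues, and over the 9196 abundant kidney genes 5.05% were called higher and 5.34% lower. In heart none of the 10 was called higher and 4 were called lower, which were Sod1, Sod2, Gpx4 and Prdx5. Over the 15871 heart genes with a mean count of 10 or more, 10.9% were called higher and 12.6% lower, and over the 7328 abundant ones the shares were 2.72% and 8.09%.

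On the log2 scale, the ratio of the CLP + MLT to the CLP library was above 0 for 6 of the 10 in kidney (4 with library size only, since Sod3 and Txn2 changed sign) and for 2 of the 10 in heart. In heart Sod3 was above 0 too with library size only (0.03), the upper quartile (0.03) and TMM over the 4 libraries (0.03), and with the GC trend removed Sod3 (0.02) and Gpx3 (0.01) were both above 0. Gpx3 was also above 0 with either length trend removed (0.06 and 0.03), and relative to mitochondrial genes 6 of the 10 were. The median of the 10 log2 ratios was 0.08 in kidney, beside 0.0029 for all genes, and the ratios ran from -0.68 to 0.48. In heart the median was -0.25, beside 0.0023 for all genes, and the ratios ran from -1.25 to 0.40. The lower and upper ends of the 10 counting intervals had medians of 0.02 and 0.14 in kidney and of -0.37 and -0.13 in heart. Those ends are not an interval of the median. The counting interval left out 0 for all 10 in kidney and for 8 in heart, Sod3 and Gpx1 being the exceptions. At this depth counting error was thus small, and the spread between mice was unknown. The kidney median depended on the scaling. With no correction beyond library size it was -0.11, while the median of all kidney genes moved to -0.19.

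**Figure D2:**
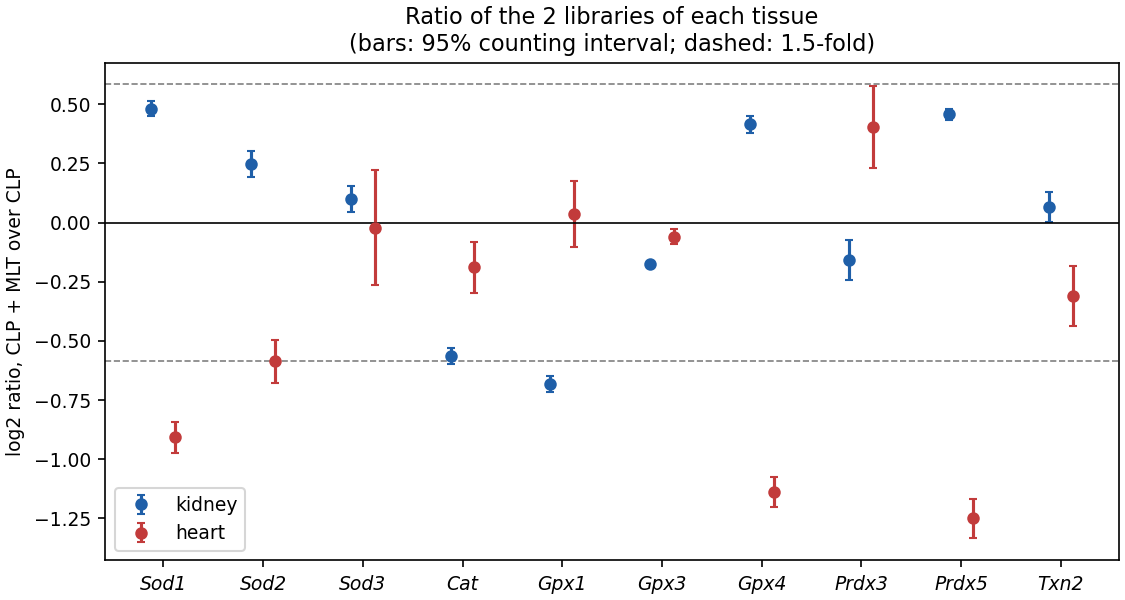
Log2 ratio of CLP + MLT over CLP (vertical) for each enzyme gene (horizontal), blue for kidney and red for heart, 1 library against 1. Bars are 95% counting intervals, and dashed lines mark 1.5-fold. Gpx1 alone lies below the lower line in kidney, Sod1, Gpx4 and Prdx5 lie well below it in heart, and Sod2 lies on it in heart.

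Of the 3 superoxide dismutases, all had ratios above 0 in kidney, none past 1.5-fold and Sod3 below 0 with library size only, and 2 were called lower in heart. Sod1 (ENSMUSG00000022982.10, chr16:90220754-90226329) encodes the copper and zinc enzyme of the cytosol. In kidney Sod1 had 17485 counts in the CLP and 15332 in the CLP + MLT library, or 713 and 996 normalized CPM, a log2 ratio of 0.48 (0.45 to 0.51). In heart it had 5417 and 2869 counts, or 332 and 177 normalized CPM, a log2 ratio of -0.91 (-0.97 to -0.84). The CLP + MLT library was thus 1.40-fold higher in kidney and 1.88-fold lower in heart. Of the abundant genes, 7.97% had a higher ratio than Sod1 in kidney and 3.58% had a lower one in heart. Of the 50-base windows of its principal transcript 23.1% also occur in the pseudogene Gm8566, which had 716 and 482 counts in kidney and 99 and 55 in heart.

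Sod2 (ENSMUSG00000006818.5, chr17:13006846-13040063) encodes the manganese enzyme of the mitochondrial matrix. In kidney it had 6444 and 4803 counts, or 263 and 312 normalized CPM, a log2 ratio of 0.25 (0.19 to 0.30), and with library size only the ratio was 0.05. Heart Sod2 had 2490 and 1647 counts, or 153 and 102 normalized CPM, a log2 ratio of -0.59 (-0.68 to -0.50). The heart ratio was 1.50-fold lower, at the threshold, and it was under it with library size only (-0.53), with the upper quartile (-0.54) and with TMM over the 4 libraries (-0.54). Sod2 is also a target of NF-kB, and the 10 listed NF-kB-induced genes were set beside it. In kidney all 10 of them lay below 0, with a median of -0.47 and 3 called lower, which were Cxcl1 (-1.55), Bcl3 (-1.15) and Icam1 (-0.84), while Sod2 lay above 0. Over all 16932 kidney genes tested, 11.6% were called lower. Scaled by library size only, 7 of the 10 NF-kB-induced genes were called lower in kidney and their median was -0.66. That scaling called 3172 of all 16932 genes lower and moved the median of all to -0.19. In heart none of the 10 NF-kB-induced genes was called, and their median of -0.05 was 0.01 with library size only. The part of NF-kB in the Sod2 ratios was not tested.

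Sod3 (ENSMUSG00000072941.5, chr5:52363791-52371418) encodes the extracellular enzyme. Its kidney counts were 6504 and 4378, or 265 and 284 normalized CPM, a log2 ratio of 0.10 (0.05 to 0.16). With library size only the kidney ratio was -0.09, so its sign depended on the scaling. In heart it had 282 and 276 counts, or 17.3 and 17.04 normalized CPM, and a ratio of -0.02 (-0.27 to 0.22), so that no difference was detectable at this depth.

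Catalase RNA was lower with melatonin in kidney, just short of the threshold. Cat (ENSMUSG00000027187.10, chr2:103453849-103485160) encodes the peroxisomal enzyme that splits hydrogen peroxide without a cosubstrate. Its kidney counts were 23205 and 9856, or 946 and 640 normalized CPM, a log2 ratio of -0.56 (-0.60 to -0.53), which is 1.48-fold lower. With library size only the ratio was -0.76 and past the threshold. Of the abundant kidney genes, 5.75% had a lower ratio. In heart Cat had 1511 and 1317 counts, or 92.7 and 81.3 normalized CPM, a ratio of -0.19 (-0.30 to -0.08).

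Other genes of the peroxisome were set beside Cat. Of 17 listed genes that passed the count filter in kidney, 4 were called lower and 1 higher, with a median of -0.12 and 12 below 0 (6 lower and 1 higher with library size only, median -0.31). Abcd3, a transporter of fatty acids into the peroxisome, was lower (8288 to 2931 counts, -0.83). Pex14, a membrane protein of peroxisomal import, was lower too (1330 to 487 counts, -0.78). So was Ehhadh, the bifunctional enzyme of peroxisomal fatty acid oxidation (24652 to 9744 counts, -0.67). Hao2, a hydroxyacid oxidase that makes hydrogen peroxide, was higher (759 to 1830 counts, 1.94). Cat thus stood with the lower side of a list that held values of both signs. In heart none of the 17 was called lower and 4 were called higher, with a median of 0.13, among them Pipox (74 to 175 counts, 1.25) and Acaa1b (265 to 398 counts, 0.60). In the same comparison 7 of 10 proximal tubule markers were called higher and 1 lower (median 1.01), and their part in the peroxisome values was not tested. Heart Cat, at -0.19, lay below the median of that list.

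The 3 glutathione peroxidases differed from each other. Gpx1 (ENSMUSG00000063856.7, chr9:108338903-108340343) encodes the abundant enzyme of cytosol and mitochondria. In kidney it had 25473 and 9961 counts, or 1038 and 647 normalized CPM, a log2 ratio of -0.68 (-0.72 to -0.65). It was 1.61-fold lower, the lowest ratio of the 10 in kidney, and 3.55% of abundant genes had a lower one. Heart Gpx1 had 813 and 828 counts, or 49.9 and 51.1 normalized CPM, a ratio of 0.04 (-0.11 to 0.18), which holds 0.

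Gpx3 (ENSMUSG00000018339.11, chr11:54902453-54910377) had by far the most reads of the set. In kidney it had 535824 and 297691 counts, or 21842 and 19334 normalized CPM, a log2 ratio of -0.18 (-0.18 to -0.17). Heart Gpx3 had 17115 and 16320 counts, or 1050 and 1008 normalized CPM, a ratio of -0.06 (-0.09 to -0.03). Both values were small beside the 1.5-fold threshold (0.585 on the log2 scale). As a share of all reads on genes, Gpx3 alone made 23370 CPM in CLP kidney.

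Gpx4 (ENSMUSG00000075706.10, chr10:80047166-80056439) encodes the enzyme that reduces lipid peroxides inside membranes and restrains ferroptosis. In kidney it had 13670 and 11450 counts, or 557 and 744 normalized CPM, a log2 ratio of 0.42 (0.38 to 0.45). Heart Gpx4 had 6362 and 2871 counts, or 390 and 177 normalized CPM, a ratio of -1.14 (-1.20 to -1.07), which is 2.20-fold lower. Of the 910 windows of 50 bases in its principal transcript, 68.9% also occur in another annotated gene, all of them in the processed pseudogene Gpx4-ps2, so reads of Gpx4 could be counted there or dropped. Gpx4-ps2 had 2850 and 2052 counts in kidney and 1285 and 578 in heart. With the reads of both added the log2 ratio was 0.38 in kidney and -1.14 in heart.

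The other selenoproteins and the genes that supply selenium were mixed. In kidney 2 of 22 were called lower and 1 higher, with a median of -0.05 (3 lower and 0 higher with library size only, median -0.24), and in heart 2 of 20 were called lower and 1 higher, with a median of -0.07. Selenop, the plasma carrier of selenium, had 53211 counts in CLP kidney and 12532 in CLP + MLT kidney (-1.41), the lowest ratio of the list, and 2573 and 2442 in heart (-0.07). Selenos was also lower in kidney (-0.85) and Dio1, a deiodinase, was higher (0.65). In heart Msrb1, a methionine sulfoxide reductase, was lower (-1.50), Selenom was lower (-0.75) and Lrp2, a receptor for Selenop that is also a tubule marker, was higher (117 to 329 counts, 1.50).

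The mitochondrial thioredoxin chain also split, with Prdx5 and Prdx3 on opposite sides in both tissues. Prdx5 (ENSMUSG00000024953.17, chr19:6906697-6910106) encodes a peroxiredoxin of mitochondria, peroxisomes and cytosol. In kidney it had 32984 and 28448 counts, or 1345 and 1848 normalized CPM, a log2 ratio of 0.46 (0.44 to 0.48). In heart it had 4086 and 1707 counts, or 251 and 105 normalized CPM, a ratio of -1.25 (-1.33 to -1.17). At 2.38-fold lower it was the lowest of the 10 in heart, where 1.60% of abundant genes had a lower ratio. On the opposite strand Prdx5 shares 409 exon bases, 19.1% of its own, with Trmt112, and the strand setting of the counting was not given. Trmt112 had 1037 and 582 counts in kidney and 260 and 283 in heart, few beside those of Prdx5.

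Prdx3 (ENSMUSG00000024997.7, chr19:60864051-60874556) encodes the peroxiredoxin of the mitochondrial matrix, and Txn2 (ENSMUSG00000005354.16, chr15:77915047-77929006) the thioredoxin that restores it. Prdx3 had 3168 and 1782 counts in kidney, or 129 and 116 normalized CPM, a log2 ratio of -0.16 (-0.24 to -0.07). In heart Prdx3 had 486 and 639 counts, or 29.8 and 39.5 normalized CPM, a ratio of 0.40 (0.23 to 0.58), the highest of the 10 there. Its 2 values were thus opposite in sign to those of Prdx5 within each tissue. Txn2 had 5000 and 3284 counts in kidney, or 204 and 213 normalized CPM, a ratio of 0.07 (0.0016 to 0.13). With library size only that ratio was -0.13. In heart Txn2 had 1163 and 932 counts, or 71.3 and 57.6 normalized CPM, a ratio of -0.31 (-0.44 to -0.18).

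The difference between the tissues was largest for the 3 genes whose promoters are printed. Heart minus kidney, the log2 ratios differed by -1.71 (-1.79 to -1.62) for Prdx5, by -1.55 (-1.63 to -1.48) for Gpx4 and by -1.39 (-1.46 to -1.32) for Sod1. For Sod2 the difference was -0.83 (-0.94 to -0.73) and for Txn2 -0.37 (-0.51 to -0.24). It had the other sign for Gpx1 at 0.72 (0.58 to 0.86), for Prdx3 at 0.56 (0.37 to 0.75) and for Cat at 0.38 (0.26 to 0.49). Gpx3 differed by 0.12. For Sod3 the difference was -0.12 (-0.37 to 0.12), which holds 0, and with library size only it was 0.13. The heart and kidney comparisons share no library, and the intervals cover the counting error of 4 counts, so none of these differences was tested against mice.

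The heart libraries also differed in their mitochondrial and muscle RNA. Of 20 listed nuclear genes for mitochondrial proteins, 16 lay below 0 in heart, 8 were called lower and 1 higher, and the median was -0.35. The 4 largest of those named were the respiratory chain subunits Cox5b (8103 to 2580 counts, -1.64), Cox4i1 (22399 to 7667 counts, -1.54), Sdhb (7525 to 2902 counts, -1.36) and Uqcrc1 (9581 to 3938 counts, -1.27). Of 10 cardiomyocyte markers, 5 were called lower and none higher, the median was -0.89 and their summed level went from 40088 to 24363 CPM. Myh6, the most abundant, had a ratio of -0.39, and Mb, myoglobin, had the lowest at -1.63. Of these 10 markers 2 lay above 0, Actc1 at 0.47 and Pln at 0.10. Over all heart genes with a mean count of 10 or more, 12.6% were called lower and 10.9% higher. Among the abundant ones the shares were 8.09% and 2.72%. The 4 enzymes called lower in heart lay at -0.59 to -1.25. The mitochondrial list ran from -1.64 to 0.71, a range that held all 10 enzymes and so does not set those 4 apart. Relative to the median of that list, 2 of the 10 were called lower, Gpx4 at -0.79 and Prdx5 at -0.90, 1 was called higher, Prdx3 at 0.75, and the median of the 10 was 0.10. In bulk tissue fewer cells of a type and less RNA per cell cannot be told apart, and the part of muscle RNA in the result was not tested. In kidney 1 of the 20 mitochondrial genes was called lower, Timm23 (-0.79), none was called higher, and the median was -0.05. Scaled by library size only, 4 of the 20 were called lower in kidney and the median was -0.25. That scaling called 3172 of all 16932 kidney genes lower, against 1971 with TMM.

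Transcript length moved with the heart ratio. Among abundant heart genes, the 1016 with a principal transcript under 1500 bases had a median log2 ratio of -0.29 and 28.5% were called lower, while the 6052 longer ones had a median of 0.01 and 4.83% were called lower. In kidney the 1510 short genes had a median of 0.09 and the 7399 longer ones of -0.02. Sod1 (641 bases), Gpx4 (959 bases) and Prdx5 (1262 bases) were under 1500 bases, as were Gpx1 (1072 bases) and Prdx3 (1478 bases). Sod2 was the longest of the 10 at 5861 bases. A trend on principal transcript length was fitted on all genes with a mean count of 10 or more, not on the abundant ones alone. In heart it stood at -0.20 for Sod1, 0.06 for Sod2, -0.18 for Gpx4 and -0.14 for Prdx5. For Sod1, Gpx4 and Prdx5 the step thus removed less than the median of -0.29 of the short abundant genes. With the trend removed the heart ratios were -0.71 for Sod1, -0.65 for Sod2, -0.96 for Gpx4 and -1.11 for Prdx5. The same 4 were called lower. In kidney Gpx1 remained the only one called lower after that step. The part of transcript length in these ratios was not tested further.

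**Figure D3:**
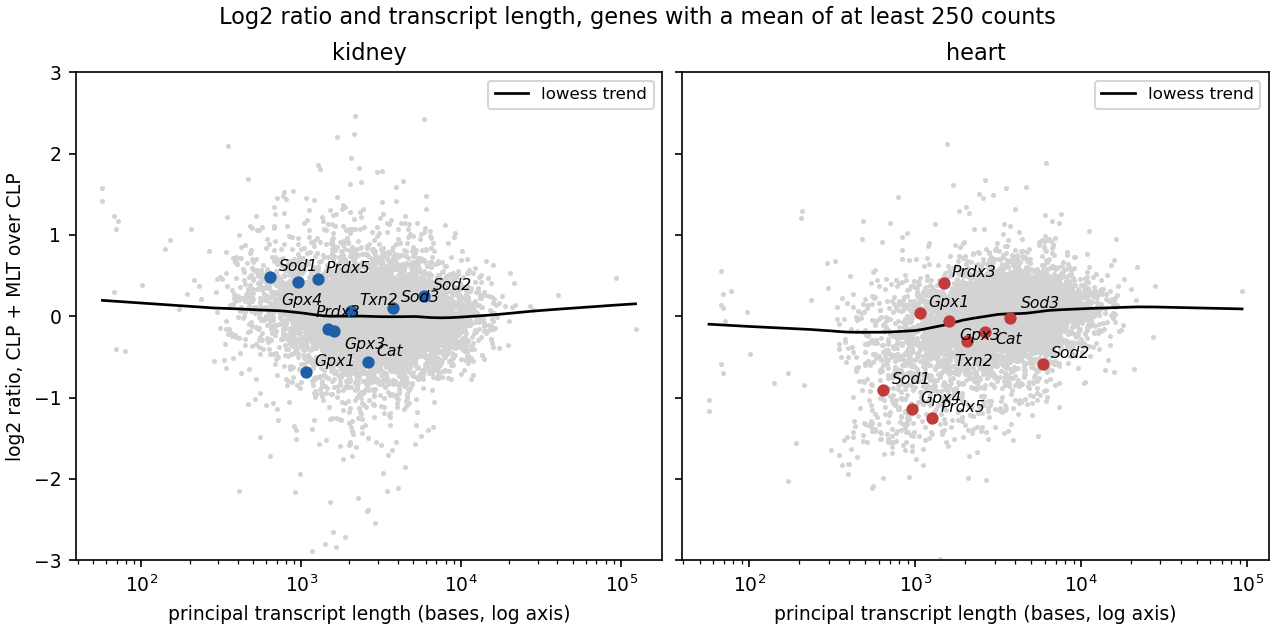
Log2 ratio of CLP + MLT over CLP (vertical, drawn from -3 to 3, with a few genes outside) against principal transcript length in bases (horizontal, log axis), kidney on the left and heart on the right. Grey points are the abundant genes, the black line is a lowess trend and coloured points are the 10 enzymes. In heart the trend lies below 0 under about 1500 bases, and Sod1, Gpx4 and Prdx5 lie below the trend.

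Some genes of a list of other peroxidases and thiol recycling were lower with melatonin. Over all genes with a mean count of 10 or more, 11% were called higher and 11.6% lower in kidney, and 10.9% and 12.6% in heart. Of other peroxidases and genes of thiol recycling with a mean count of 10 or more, 5 of 22 were called lower and none higher in kidney, with a median of -0.11 (7 lower with library size only, median -0.30). The named ones were Srxn1, which repairs overoxidized peroxiredoxins (3371 to 1001 counts, -1.08), Glrx, a glutaredoxin (-0.80), Txnrd1, the cytosolic thioredoxin reductase (3447 to 1247 counts, -0.79), and Txnrd3 (-0.68). In heart 5 of 21 were called lower and none higher, with a median of -0.20, among them Prdx2, a cytosolic peroxiredoxin (1996 to 1152 counts, -0.78), Glrx5 (-0.70) and Txnrd2, the mitochondrial thioredoxin reductase (584 to 364 counts, -0.67). Sesn2 (93 to 55 counts, -0.74) and Sesn3 (76 to 49 counts, -0.62) were called lower in heart too, at low counts. Txnrd2 serves the same chain as Prdx3 and Txn2. In kidney it was at 406 and 353 counts (0.47).

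Genes that supply glutathione and NADPH were mixed. In kidney 3 of 13 were called lower and 1 higher, with a median of -0.35, and with library size only 6 were called lower and 0 higher, with a median of -0.54. Slc3a2, a subunit of the cystine transporter, was lower (5064 to 1427 counts, -1.16), as were Pgd of the pentose phosphate pathway (3666 to 1267 counts, -0.86) and Idh1, the cytosolic isocitrate dehydrogenase (5056 to 1890 counts, -0.75). Slc7a11, the other subunit of that transporter, had 0 counts in both kidney libraries, so the Slc3a2 value was not read as cystine uptake. Ggt1, which breaks down glutathione outside the cell, was higher (23095 to 22220 counts, 0.62). In heart 2 of 12 were called lower, Idh2 (16973 to 10612 counts, -0.67) and Taldo1 (-0.59), and 2 higher, Tkt (1175 to 1904 counts, 0.71) and Ggt1 (297 to 468 counts, 0.67), with a median of 0.06. Idh2 makes NADPH in the mitochondrial matrix, where Prdx3 and Txn2 act. Nnt, which also makes NADPH there, is listed under 2 identifiers on the same strand, and the one used had 8 to 15 counts a library.

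**Figure D4:**
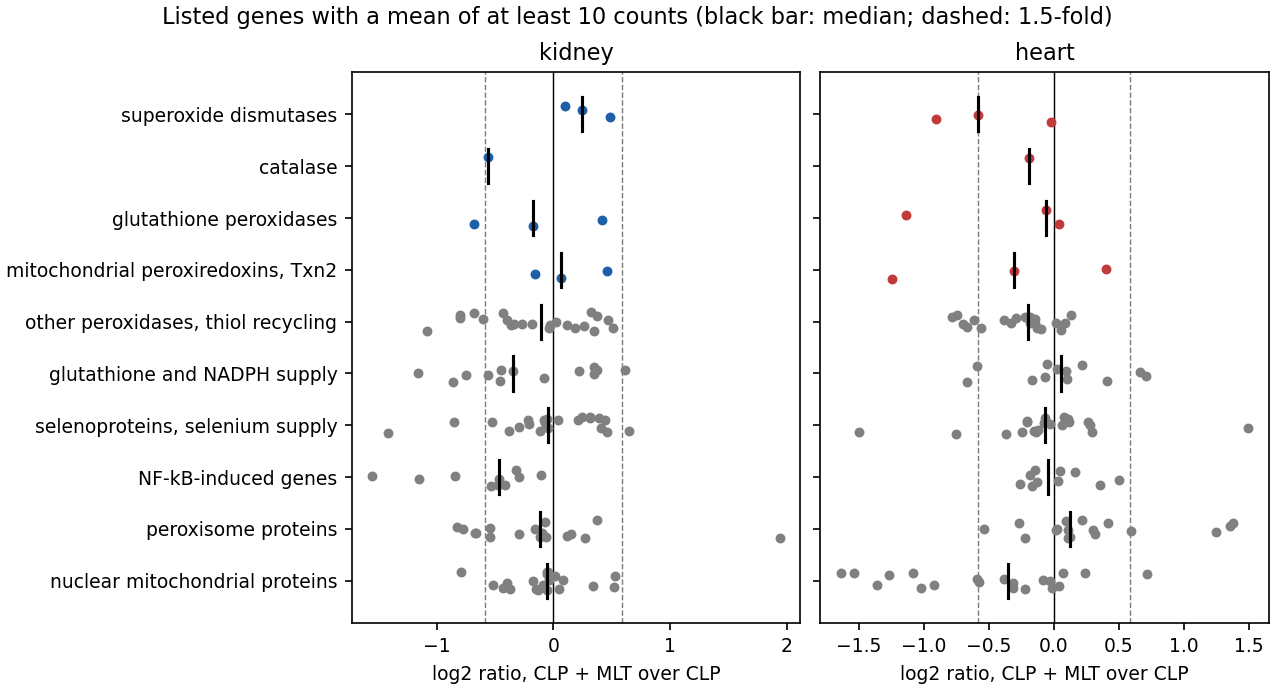
Log2 ratio of CLP + MLT over CLP (horizontal) of single genes in each list (vertical), kidney on the left and heart on the right, with different horizontal scales. Coloured points are the 10 enzymes, grey points genes of the lists set beside them, black bars medians and dashed lines 1.5-fold. In heart the nuclear mitochondrial list spreads to the left of 0 as Sod1, Gpx4 and Prdx5 do, and in kidney all NF-kB-induced genes lie left of 0.

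Markers of other cells were set beside the kidney values. Of 10 proximal tubule markers, 4 were called higher and 4 lower, the median was 0.49 and the summed level went from 23424 to 30768 CPM, of which Kap made 19569 and 26683 CPM. Of 7 macrophage markers that passed the filter, 3 were called higher and none lower (median 0.31), and their summed level went from 126 to 220 CPM. All 6 endothelial markers lay below 0 (median -0.47), with 1 called lower. Of 8 fibroblast and smooth muscle markers 1 was called lower (median -0.28), of 5 neutrophil markers 2 were called lower and 1 higher (median -0.11), of 5 red cell markers 1 was called lower and 1 higher (median 0.38), and of 3 thick limb markers 1 was called higher (median 0.30). Scaled by library size only, 1 proximal tubule marker was called higher and 4 lower, 2 macrophage markers higher and 1 lower, 4 endothelial markers lower, 3 fibroblast and smooth muscle markers lower and, of the red cell markers, 0 higher and 1 lower. The neutrophil marker Ly6g had 0 counts in all 4 libraries. Gpx3, Gpx1 and Cat are abundant in the proximal tubule, and the part of its RNA in their values was not tested.

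In heart some enzymes stood at shares of their kidney level within the range of tubule markers, though above the tubule median. As a share of the kidney level, Gpx3 stood at 4.41% in the CLP heart and 5.69% in the CLP + MLT heart, Gpx1 at 4.40% and 8.62%, Sod3 at 5.98% and 6.54% and Cat at 8.98% and 13.9%. The 13 tubule markers, which heart cells are not known for, stood at a median of 2.17% (0.372% to 6.85%) in CLP and 4.33% (0% to 29.8%) in CLP + MLT, and Kap at 1.34% and 2.27%. Their summed proximal tubule level in heart went from 361 to 796 CPM, with 7 of 10 called higher and 1 lower. The marker at 29.8% was Slc5a2, which went from 208 to 38.7 CPM in kidney and from 14.3 to 11.5 CPM in heart. Sod1 stood at 42.7% and 19.4% and Gpx4 at 64.2% and 26.0%. Prdx5 stood at 17.1% and 6.22%, Prdx3 at 21.2% and 37.2%, Txn2 at 32.1% and 29.4% and Sod2 at 53.3% and 35.6%. All 10 enzymes stood above the tubule median in both groups. How much tubule RNA contributed to the heart counts of Gpx3, Gpx1 and Sod3 was not tested. Among other heart markers, 2 of 8 macrophage genes were called higher and 3 lower, with a median of -0.29 and a summed level of 259 CPM in CLP and 306 CPM in CLP + MLT. The median was -0.56 for neutrophil genes, -0.04 for red cell genes (0.02 with library size only), 0.27 for endothelial genes and -0.28 for fibroblast and smooth muscle genes.

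**Figure D5:**
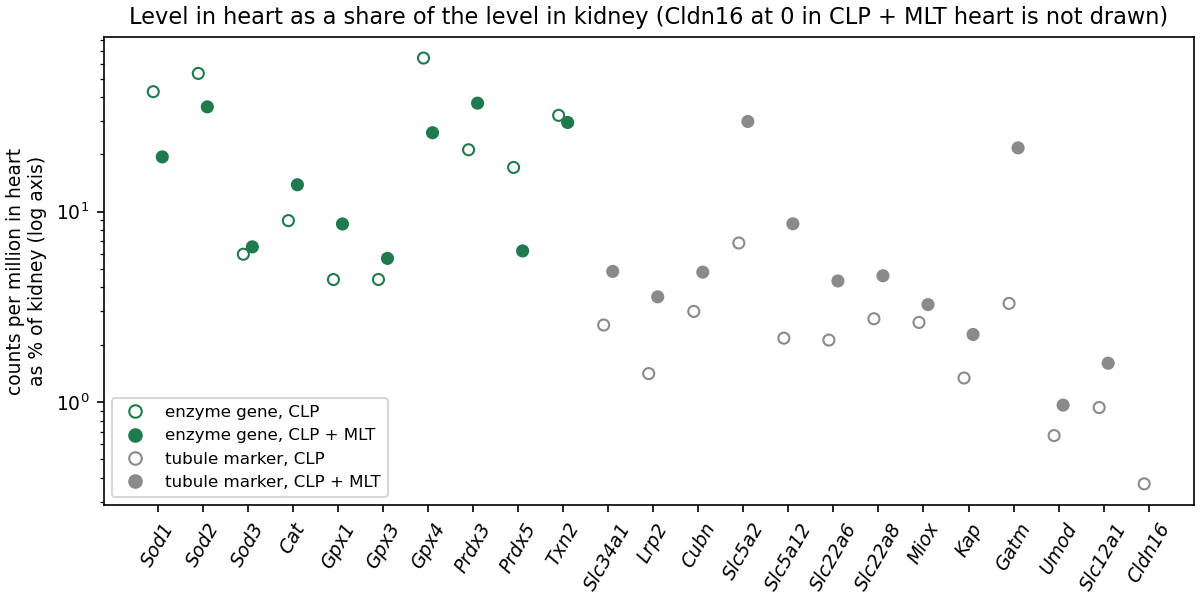
CPM in heart as a percentage of those in kidney (vertical, log axis) for the 10 enzymes (green) and 13 tubule markers (grey), open for CLP and filled for CLP + MLT, 1 library against 1 with no error bar. Gpx1, Gpx3 and Sod3 lie at 4.40% to 8.62%, above the tubule medians of 2.17% in CLP and 4.33% in CLP + MLT. Sod1, Sod2, Gpx4, Prdx3 and Txn2 lie higher, at 19.4% to 64.2%.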

How the data were processed

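RNA-seq was analysed from 1 kidney and 1 heart library of each group. The libraries were poly-A selected and made with a kit that does not mark strand. Reads were trimmed (trim-galore) and aligned to mm10 by the authors, who deposited raw, unnormalized read counts of every gene. The submitters' processing notes name HISAT2 2.1.0 and HTSeq. No source used here gives the annotation or strand setting, so reads of overlapping genes are uncertain. The last 5 lines of a file are totals outside genes, which held 65.5% to 72.8% of all reads and were left out. Of 55401 identifiers, 54349 matched GENCODE M21 (GRCm38) with their version.

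From the deposited counts, TMM factors (1.07 and 0.935 in kidney, 0.981 and 1.02 in heart) were computed within each tissue with edgeR 4.0.16 in R 4.3.3, and DESeq2 1.42.0 gave size factors as an alternative. Log2 ratios, after a prior count of 0.5 (scaled by library size), were computed in Python 3.11.15 for genes with a mean count of 10 or more. Intervals are 95% exact Clopper-Pearson intervals on the split of a gene's reads between the libraries. They cover counting error only, since PCR copies are not independent molecules. The study's edgeR p-value was not used, since with 1 library per group no spread can be estimated. The ratios and intervals were checked on simulated counts that held counting error only. That check covers the computation, and it cannot speak to PCR copies, the spread between mice or the TMM scaling.

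The 10 enzymes and 14 further lists were chosen with earlier results of these data known. The background for the called counts of every list is the share over all genes with a mean count of 10 or more. With TMM it was 11% higher and 11.6% lower in kidney, and 10.9% and 12.6% in heart. All 10 enzymes are named. From each pathway or compartment list the text names up to 4 genes per tissue that were called and had a mean count of 100 or more, largest first, and from marker lists the most abundant genes. Mb, Actc1, Pln, Ly6g, Slc5a2, Slc7a11, Sesn2 and Sesn3 were added after they were seen. So were the heart value of Selenop and the values of Txnrd2 in kidney and of Nnt. Alternatives were other scalings, filters, prior count and fold, assumed variation between mice, and removal of length or GC trends. Levels per principal transcript, the sum of Gpx4 and Gpx4-ps2, the background of abundant genes, the trend on principal transcript length and the values relative to mitochondrial genes were chosen after the data were seen.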

Additional observations from a re-analysis of the deposited data

Results flagged for a closer look

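For 5 of the 10 enzymes the CLP + MLT library was higher than the CLP library in kidney and lower in heart, and for Prdx3 it was lower in kidney and higher in heart, with counting intervals on opposite sides of 0. Heart minus kidney, the log2 ratios differed by -1.39 for Sod1, -0.83 for Sod2, -1.55 for Gpx4, -1.71 for Prdx5, -0.37 for Txn2 and 0.56 for Prdx3. With library size only the differences were -1.14, -0.58, -1.30, -1.46, -0.12 and 0.81, and the kidney ratio of Txn2 was below 0 as in heart. Each tissue had 1 library per group, so the difference between tissues was not tested.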

How the results depend on the processing

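No paired analysis was possible because each group had 1 library, and for the same reason no replicate could be left out. With library size only, 2 of the 10 enzymes were called lower in kidney (Gpx1 and Cat) and the kidney median was -0.11. That scaling moved the median of all genes to -0.19 in kidney and 0.06 in heart. Over all kidney genes it gave 1149 higher and 3172 lower calls, so 26.6% of calls were higher, against 48.6% (1863 higher and 1971 lower) with TMM. At 2-fold, 0 were called lower in kidney and 2 in heart. With edgeR's exact test and mice assumed to vary with a coefficient of 0.2 (p at most 0.01), 0 were called lower in kidney and 2 in heart, and at 0.4, 0 in both. Those 2 settings rest on a spread that was assumed, not measured. Relative to the listed mitochondrial genes, 1 was called higher and 2 lower in heart and the median was 0.10, since that step adds 0.35 to each ratio. Other settings left the counts of called enzymes within 1.5 times. Gpx1 was called lower in 12 of the 15 kidney settings, and in heart Gpx4 and Prdx5 were called in 15 of 16, Sod1 in 12 and Sod2 in 9. These tallies include settings that changed only the count filter. Such settings could not alter a call, since the smallest mean count of the 10 enzymes was 2475 in kidney and 279 in heart. Kidney ratios of Sod3 (-0.09) and Txn2 (-0.13) were below 0 with library size only. Levels per principal transcript differed by over 1.5 times from those per merged exons for 2 enzymes in each kidney library and 3 in each heart library. In heart the counting intervals of Sod3 (-0.27 to 0.22) and Gpx1 (-0.11 to 0.18) hold 0 and stay inside the 1.5-fold threshold (0.585) on both sides.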
